A study of Homo sapiens with 10 samples.

Results

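The chemokines CXCL1, CXCL2, CXCL3, CXCL5, IL8, CCL2 and CCL20, the cytokine IL6 and the chemokine receptors CXCR4 and CXCR7 were followed across 4 populations of PC3, a human prostate cancer cell line. These 10 genes were taken by symbol from the 23170 gene entries of the RNA-seq tables, and each had a single entry that it shared with no other gene. IL8 is now called CXCL8, and CXCR7 is now called ACKR3. PC3-Epi (2 samples) was a luciferase-expressing subpopulation that kept an epithelial form in culture. PC3-EMT14 (3 samples) was a mesenchymal population isolated after PC3-Epi had grown with IL4-treated macrophages made from CD14+ monocytes. The other 2 lines, PC3-EMT14-OVOL1 with 3 samples and PC3-EMT14-OVOL2 with 2, were PC3-EMT14 cells carrying lentiviral constructs that overexpress the zinc finger transcription factor OVOL1 or OVOL2, and their control in these data was PC3-EMT14 with no vector named in its label. Each population was derived once, so a difference between lines also holds whatever else set that isolate or transduction apart. The comparisons against PC3-EMT14 ask how signalling genes of the mesenchymal cells differ once an OVOL factor is overexpressed, and how the epithelial cells they came from compare.

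Chemokines are small secreted proteins that guide migrating leukocytes through receptors coupled to G proteins. CXCL1, CXCL2, CXCL3, CXCL5 and IL8 belong to the branch with an ELR motif, which attracts neutrophils through CXCR2 and, for IL8, also CXCR1. CCL2 attracts monocytes through CCR2, and CCL20 attracts dendritic cells and lymphocytes through CCR6. IL6 signals through IL6R and the shared subunit IL6ST to the JAK kinases and, in many cells, STAT3. Most of these ligands are textbook targets of NF-kappaB. CXCR4 is the signalling receptor for CXCL12 and is well known in prostate cancer for its link with bone metastasis, and CXCR7 binds the same ligand but couples mainly to arrestins.

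The stretches before the start sites of the ligands are shown because the ligands counted as higher in an OVOL line held a short motif there. Most of these ligands are textbook targets of NF-kappaB, so a kappaB match was likely beforehand and is not independent support. Each line below gives the 120 bases before the RefSeq start (bases -120 to -1, 5′ to 3′ on the strand of the gene). The sequences are from a RefSeq promoter table of GRCh38.p14 and were matched exactly to GRCh37, the build equal to hg19, for their positions. Capitals mark GGNNTTTCC, a short form of the kappaB motif, searched on both strands with overlaps allowed. CXCR4 is shown for contrast. In order, the stretches lie at chr4:74734990-74735109 (plus strand), chr4:74964913-74965032 (minus), chr4:74904407-74904526 (minus), chr4:74864395-74864514 (minus), chr4:74606166-74606285 (plus), chr2:228678438-228678557 (plus), chr7:22766699-22766818 (plus) and chr2:136875720-136875839 (minus).
CXCL1: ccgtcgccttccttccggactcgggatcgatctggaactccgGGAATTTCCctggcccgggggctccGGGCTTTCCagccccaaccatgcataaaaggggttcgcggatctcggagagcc
CXCL2: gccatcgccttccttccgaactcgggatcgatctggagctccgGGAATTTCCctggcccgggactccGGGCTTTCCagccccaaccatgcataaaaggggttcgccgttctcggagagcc
CXCL3: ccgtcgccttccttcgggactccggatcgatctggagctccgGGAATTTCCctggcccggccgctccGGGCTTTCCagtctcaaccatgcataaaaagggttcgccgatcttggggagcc
CXCL5: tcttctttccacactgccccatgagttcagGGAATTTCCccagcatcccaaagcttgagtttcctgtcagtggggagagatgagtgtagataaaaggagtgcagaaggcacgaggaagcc
IL8: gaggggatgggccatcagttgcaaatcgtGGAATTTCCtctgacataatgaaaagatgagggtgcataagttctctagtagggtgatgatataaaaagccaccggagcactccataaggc
CCL20: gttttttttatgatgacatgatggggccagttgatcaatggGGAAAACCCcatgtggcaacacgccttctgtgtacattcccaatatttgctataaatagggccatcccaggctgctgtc
IL6: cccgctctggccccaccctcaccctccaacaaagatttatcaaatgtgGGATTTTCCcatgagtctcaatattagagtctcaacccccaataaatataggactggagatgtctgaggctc
CXCR4: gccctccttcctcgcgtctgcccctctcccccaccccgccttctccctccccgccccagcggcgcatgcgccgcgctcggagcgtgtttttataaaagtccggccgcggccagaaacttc

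CXCL1, CXCL2 and CXCL3 each held the motif at 2 positions, and CXCL5, IL8, IL6 and CCL20 each held it at 1, with the match in CCL20 on the opposite strand. Of 35116 RefSeq promoters, 2.76% held a match in the same 120 bases and 0.0626% held 2 or more. The nearer match ran from base -53 to base -45 in all 3 of CXCL1, CXCL2 and CXCL3, whose 120 bases were identical at 93.4% of aligned positions for CXCL1 and CXCL2, 90.8% for CXCL1 and CXCL3, and 88.4% for CXCL2 and CXCL3. These 3 promoters are therefore near copies and do not count as separate instances. CXCR4 held no match in the stretch shown and 1 match farther out, from base -230 to base -222, within the 250 bases that 5.48% of promoters matched. The OVOL2 consensus had no match in the 250 bases before the start of any of the 8 genes, against 0.877% of all promoters. At that share almost any 8 genes would hold none, so nothing follows for binding by OVOL2. Bases after the start were not searched, and the site the paper reports for OVOL2 in ZEB1 lies there. A match describes letters only. The deposited loci of IL6, CXCL3 and CXCL2 begin 53, 84 and 85 bases upstream of these RefSeq starts, so part of the stretch shown lies inside the deposited gene there. Both matches of CXCL2 and both of CXCL3 fall in that part and so are not before the deposited start, whereas the match of IL6 is. The other loci begin at most 22 bases upstream, short of any match. CCL2 and CXCR7 were not in the promoter table.

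**Figure D1:**
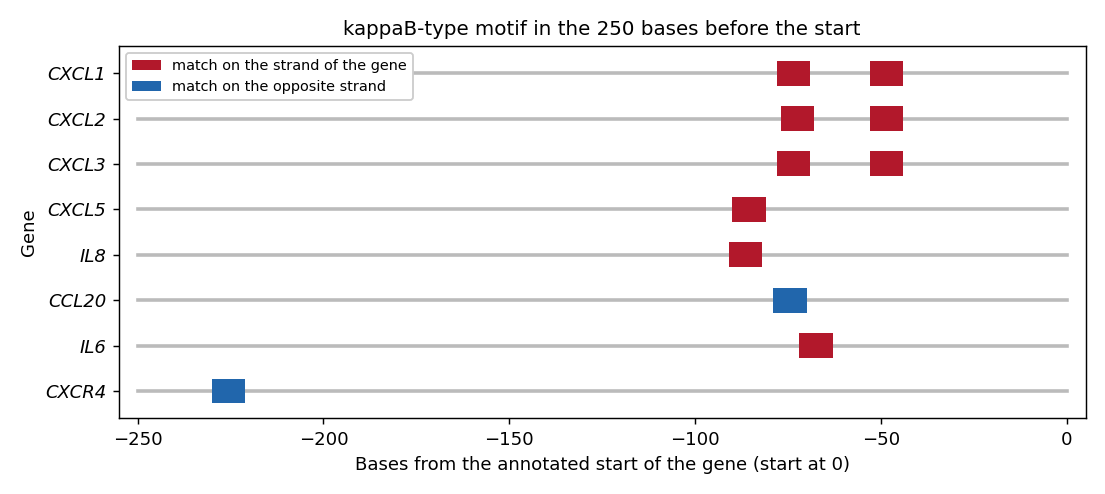
Positions of the kappaB-type motif (boxes) in the 250 bases before the RefSeq start of 8 genes, with distance from the start in bases on the horizontal axis. In 7 genes every match lies between bases -91 and -45, and the match in CXCR4 lies at -230.

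Levels are the FPKM values that the authors deposited, fragments scaled by transcript length and by an upper-quartile total, so within a table they can be set side by side between genes. The samples of a line had been pooled into 1 value per line and table. How deeply each sample was sequenced is unknown from these values, so no SD or test is given and no difference below has a replicate check. A gene was counted as higher or lower when its values in a table differed by at least 2-fold and reached 1 FPKM in the higher line. A gene that reaches 1 FPKM only in the line where it is high enters the count through that line, which favours a difference without fixing a 2-fold one. This applied to CXCL5, CCL20 and CXCR4, and to CXCR7 in the comparison of PC3-Epi with PC3-EMT14. Tables were normalized separately, and the same line's value for one of the 10 genes differed between tables by at most 1.03-fold. All values are from bulk RNA, where fewer cells expressing a gene and less RNA per cell cannot be told apart.

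Each overexpressed factor was high in the line named for it, and the epithelial and mesenchymal markers differed in part. OVOL1 was 0.0238 FPKM in PC3-EMT14 and 11.3 in PC3-EMT14-OVOL1, and OVOL2 was 0.370 in PC3-EMT14 and 831 in PC3-EMT14-OVOL2. CDH1, the epithelial cadherin, was 0.981 in PC3-EMT14, 16.2 and 39.2 in the OVOL1 and OVOL2 lines, and 50.6 in PC3-Epi. Of 4 epithelial and 4 mesenchymal markers, 2 were higher and 0 lower with OVOL1, where VIM was 265 and 183 and ZEB1 7.43 and 4.25. With OVOL2, 3 were higher and 3 lower. In PC3-Epi the 4 epithelial markers were higher and 2, VIM and ZEB1, lower, while FN1, at 36.8 and 33.8, and CDH2, at 18.0 and 11.3, were within 2-fold there. Over all genes that reached 1 FPKM, 2.43%, 4.42% and 7.37% were higher in these 3 comparisons and 1.54%, 2.93% and 8.34% lower. Of 13 macrophage markers with a single entry, only CD68 reached 1 FPKM, at 54.1 in PC3-EMT14 and 13.2 in PC3-Epi. The other 12 summed to between 0.425 and 0.644 in the 4 lines, and C1QA and C1QB were at 0 in all of them.

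IL8 (XLOC_015521, chr4:74606275-74609433, hg19) was among the most abundant transcripts of the OVOL lines. It was 79.7 FPKM in PC3-EMT14 and 291 in PC3-EMT14-OVOL1 in one table, 78.9 and 538 with OVOL2 in the next, and 81.4 and 204 in PC3-Epi in the third. PC3-EMT14 was thus the lowest line and PC3-EMT14-OVOL2 the highest, 6.82-fold above it. The ratio was 3.65 with OVOL1 and 2.50 in PC3-Epi. By level, IL8 stood at place 88 among the gene entries in PC3-EMT14-OVOL2 and at place 1013 in PC3-EMT14.

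CXCL1 (XLOC_015524, chr4:74735109-74736955) was close to IL8 in level and differed from it in the epithelial line. It was 65.3 FPKM in PC3-EMT14 and 306 with OVOL1, then 64.6 and 496 with OVOL2, and 66.7 and 73.7 in PC3-Epi. The OVOL lines were 4.69-fold and 7.68-fold above PC3-EMT14, whereas PC3-Epi was within 1.11-fold of it.

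CXCL3 and CXCL2 lie in the same cluster and were far less abundant. CXCL3 (XLOC_015918, chr4:74902312-74904490) was 4.01 FPKM in PC3-EMT14 and 15.6 with OVOL1, 3.97 and 37.1 with OVOL2, and 4.10 and 2.10 in PC3-Epi. CXCL2 (XLOC_015920, chr4:74962754-74964997) was 2.58 and 8.33 with OVOL1, 2.55 and 14.7 with OVOL2, and 2.63 and 2.01 in PC3-Epi. For both genes PC3-Epi was the lowest line and PC3-EMT14-OVOL2 the highest, and the step from PC3-EMT14 down to PC3-Epi stayed under 2-fold. With OVOL2 the ratio to PC3-EMT14 was 9.34 for CXCL3 and 5.77 for CXCL2. CXCL1, CXCL2 and CXCL3 are near copies of one another, and the authors' processing divided reads that map to several places, so their separate values are uncertain, as are those of CXCL5 and its near copy CXCL6.

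CXCL5 (XLOC_015917, chr4:74861359-74864416) was near the limit of 1 FPKM and followed a different order. It was 0.596 FPKM in PC3-EMT14 and 0.764 with OVOL1, 0.590 and 1.52 with OVOL2, and 0.609 and 1.74 in PC3-Epi. PC3-Epi and PC3-EMT14-OVOL2 were the high lines, 2.86-fold and 2.58-fold above PC3-EMT14, and PC3-EMT14-OVOL1 remained under 1 FPKM.

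IL6 (XLOC_019415, chr7:22766766-22771621) had the largest ratio of the 10 genes in the OVOL lines. It was 1.32 FPKM in PC3-EMT14 and 8.22 with OVOL1, 1.31 and 17.9 with OVOL2, and 1.35 and 2.55 in PC3-Epi. These are ratios of 6.21, 13.6 and 1.88. The rank rests in part on the low level in PC3-EMT14. With 1 FPKM added to every value, the log2 ratio with OVOL1 was 1.99 for IL6 and 2.21 for CXCL1. With OVOL2 it was then 3.03 for IL6, still the largest, and 2.94 for CXCL3. PC3-EMT14 was the lowest line.

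The CC chemokines were scarce in these cells. CCL20 (XLOC_012067, chr2:228678558-228682280) was 0.217 FPKM in PC3-EMT14 and 0.625 with OVOL1, 0.214 and 1.33 with OVOL2, and 0.221 and 0.295 in PC3-Epi. It reached 1 FPKM only with OVOL2, where it was 6.20-fold above PC3-EMT14. One of its pair of annotated isoforms was listed at 0 in PC3-EMT14 and at 0.000406 in PC3-Epi, but at 0.288 with OVOL1 and 0.739 with OVOL2. The other isoform was 0.214 in PC3-EMT14 and 0.591 with OVOL2 in the same table. CCL2 (XLOC_008521, chr17:32582296-32584220) lay between 0.0167 and 0.0502 FPKM in every line and table, so it was not counted in any comparison, and its ratios rest on values too low to read.

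**Figure D2:**
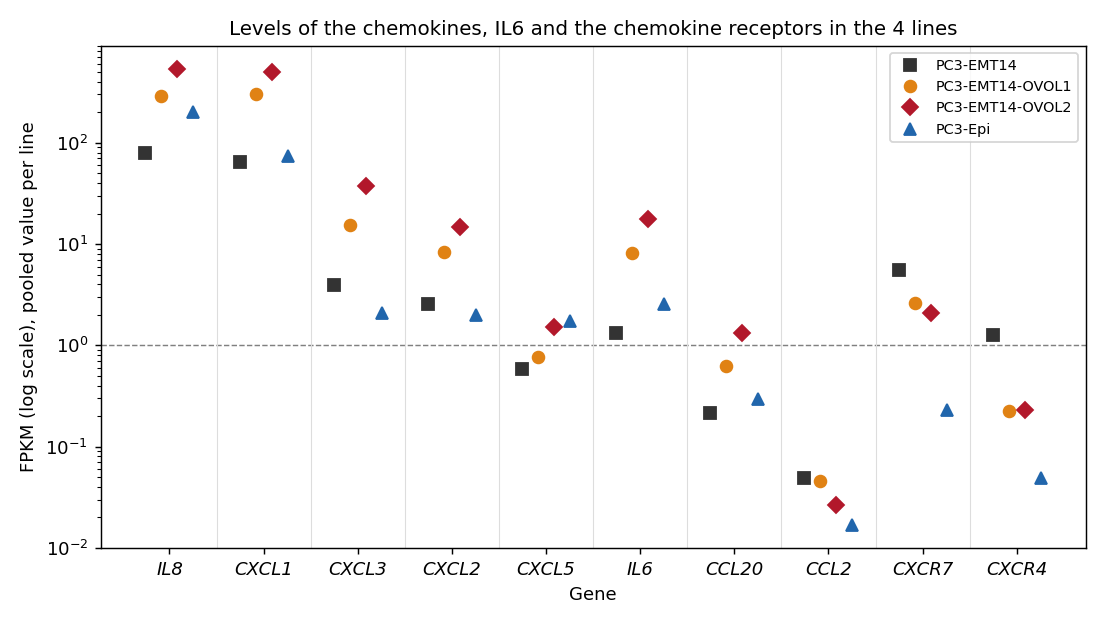
Deposited pooled FPKM values (vertical axis, log scale) of the 10 genes in the 4 lines, 1 point per line, with PC3-EMT14 from its table with PC3-EMT14-OVOL2 and the dashed line at 1 FPKM. PC3-EMT14-OVOL2 is the top point for IL8, CXCL1, CXCL3, CXCL2, IL6 and CCL20, and PC3-EMT14 is the top point for CXCR7 and CXCR4.

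Both receptors were lower in the OVOL lines than in PC3-EMT14, whereas the ligands counted in these lines were higher. CXCR7 (XLOC_012106, chr2:237478380-237490994) was 5.58 FPKM in PC3-EMT14 and 2.61 with OVOL1, 5.52 and 2.09 with OVOL2, and 5.70 and 0.228 in PC3-Epi. CXCR4 (XLOC_012526, chr2:136871919-136875725) was 1.27 and 0.226 with OVOL1, 1.25 and 0.232 with OVOL2, and 1.29 and 0.0495 in PC3-Epi. PC3-EMT14 was the highest line for both receptors and PC3-Epi the lowest. The log2 ratio of PC3-Epi to PC3-EMT14 was -4.71 for CXCR4, a 26.2-fold difference, and -4.64 for CXCR7. With OVOL1, CXCR4 was 5.61-fold and CXCR7 2.14-fold below PC3-EMT14, and with OVOL2 they were 5.40-fold and 2.64-fold below it. The whole value of CXCR4 came from one of its isoforms, and the other was listed at 0 in every line.

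Of the 10 genes, 7 reached 1 FPKM in the comparison of PC3-EMT14-OVOL1 with PC3-EMT14, and 5 of them were higher and 2 lower. Over all 12197 genes that reached 1 FPKM there, 2.43% were higher and 1.54% lower. With OVOL2, 9 reached 1 FPKM, 7 were higher and 2 lower, against 4.42% higher and 2.93% lower among 12307 genes. In PC3-Epi, 8 reached 1 FPKM, 2 were higher (IL8 and CXCL5) and 2 lower (CXCR4 and CXCR7), against 7.37% and 8.34% of 12441 genes. The genes that reached 1 FPKM differed between comparisons. Their median log2 ratio to PC3-EMT14 was 1.87 for the OVOL1 line, 2.63 for the OVOL2 line and -0.12 for PC3-Epi. The 2.63 is the ratio of CCL20 itself, which, like CXCL5, entered that set only through the OVOL2 line. Over all genes the median lay between -0.04 and -0.0017 in these comparisons. The 3 comparisons share the PC3-EMT14 samples, so their ratios are not independent of one another.

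**Figure D3:**
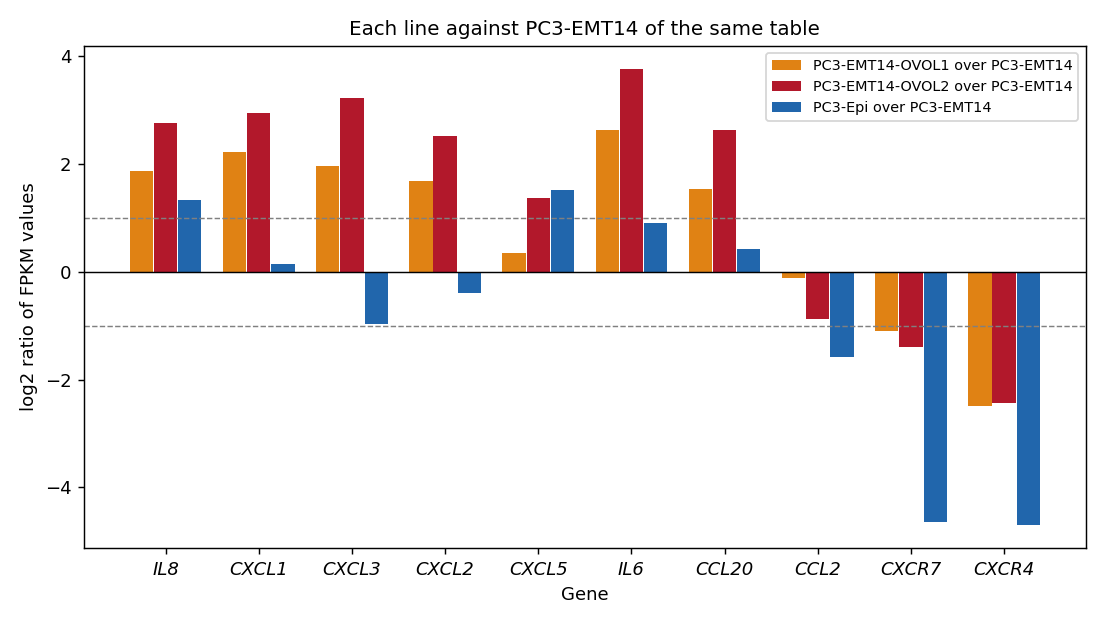
Log2 ratio of the FPKM value in each of 3 lines to that of PC3-EMT14 in the same table, for each of the 10 genes, with dashed lines at a 2-fold difference. Bars of the OVOL lines point up for IL8, CXCL1, CXCL3, CXCL2, CXCL5, IL6 and CCL20 and down for CXCR7 and CXCR4, the bars of CCL2 rest on values of at most 0.0502 FPKM, and the PC3-Epi bars of CXCL1, CXCL2 and CXCL3 lie inside the dashed lines.

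Of the ligands that reached 1 FPKM, those other than CXCL5 were above the epithelial line in both OVOL lines. Set relative to PC3-EMT14 of each table, CXCL3 was 7.56-fold above PC3-Epi with OVOL1 and 18.2-fold above it with OVOL2. For CXCL2 these values were 4.23 and 7.56, for CXCL1 4.24 and 6.95, for IL6 3.30 and 7.23, and for CCL20, which was under 1 FPKM with OVOL1, 2.16 and 4.64. IL8 was 1.46-fold above PC3-Epi with OVOL1 and 2.73-fold with OVOL2. CXCL5 was 0.902 times its PC3-Epi level with OVOL2 and 0.448 times with OVOL1. CXCL1, CXCL2, CXCL3, CCL20 and IL6 were thus at least 2-fold above both PC3-EMT14 and PC3-Epi in both OVOL lines, a pattern chosen after the values were seen that 0.364% of 12634 genes showed. No line was labelled as an empty-vector control, so the overexpressed factor and its transduction cannot be told apart in this pattern. The receptors stood between the other lines. CXCR4 was 4.66-fold above PC3-Epi with OVOL1 and 4.84-fold with OVOL2, and CXCR7 was 11.7-fold and 9.47-fold above it. Both were at least 2-fold below PC3-EMT14 in the 3 other lines, as were 1.01% of the 12634 genes, again a pattern chosen after seeing the values.

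The table that sets PC3-EMT14-OVOL2 against PC3-EMT14-OVOL1 compares the factors directly. Their transcripts differed greatly in level, since OVOL2 was 831 FPKM in its line and OVOL1 was 11.2 in its own. CXCL3 was 15.4 FPKM with OVOL1 and 37.1 with OVOL2, and IL6 was 8.13 and 17.9. CCL20 was 0.618 and 1.33, and CXCL5 was 0.755 and 1.52. These 4 of the 8 genes that reached 1 FPKM were higher with OVOL2 and 0 were lower, against 1.90% and 1.17% of 12188 genes. CCL20 and CXCL5 reached 1 FPKM only through the OVOL2 line, and CXCL5 passed the limit at 2.01-fold. With each line's value taken from its own table against PC3-EMT14, 3 were higher and CXCL5 fell just under 2-fold. IL8, at 288 and 538, CXCL1, at 303 and 496, and CXCL2, at 8.24 and 14.7, were also higher with OVOL2 by 1.87-fold, 1.64-fold and 1.79-fold, under the limit of 2. The receptors were close in this pair, CXCR4 at 0.224 and 0.232 and CXCR7 at 2.59 and 2.09. The effect of the factor and that of its level cannot be told apart.

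Other chemokines were mostly scarce. Of 12 further CXC ligands, 2 reached 1 FPKM with OVOL1 and both were higher, 3 did with OVOL2 and 2 were higher, and 2 did in PC3-Epi and 1 was higher, against 2.43%, 4.42% and 7.37% of all genes. None was lower. CXCL6, another ELR ligand, was 41.1 FPKM in PC3-EMT14 and 85.9 with OVOL1, 40.7 and 71.3 with OVOL2, and 42.0 and 31.7 in PC3-Epi. CXCL16, a membrane-bound ligand of CXCR6, was 6.13 in PC3-EMT14, 20.3 with OVOL2 and 19.9 in PC3-Epi. PF4, a platelet chemokine, was 0.420 in PC3-EMT14 and 1.36 with OVOL2, the line through which it reached 1 FPKM. Of 25 further ligands outside the CXC branch, 3 or 4 reached 1 FPKM in each comparison with PC3-EMT14. None was counted with OVOL1, 2 were higher with OVOL2, and 1 was lower in PC3-Epi, where 8.34% of all genes were. These were CCL22, at 0.0261 and 1.13 with OVOL2, and CCL26, which guides eosinophils, at 28.9 and 62.8 with OVOL2 and at 29.8 and 5.01 in PC3-Epi. CCL22 reached 1 FPKM only through the OVOL2 line, and it was 0.573 with OVOL1 and 0.434 in PC3-Epi.

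The receptors for the ELR chemokines were not seen. CXCR1 and CXCR2, and also CXCL12, the ligand of CXCR4 and CXCR7, were listed at 0 in the 4 lines. Of 21 further chemokine receptors, at most 2 reached 1 FPKM in any comparison with PC3-EMT14. CCR1 was 0.254 in PC3-EMT14 and 1.16 with OVOL2, the line through which it reached 1 FPKM. CCBP2, an atypical receptor that takes up CC ligands and is now called ACKR2, was 0.365 in PC3-EMT14 and 3.68 in PC3-Epi, and CCRL2 was 4.89 and 2.35. Another list held 13 genes for coupling and turnover of CXCR4 and CXCR7 (G protein subunits, arrestins, receptor kinases and hypoxia factors). Of all genes, 2.43% to 7.37% were higher and 1.54% to 8.34% lower in the comparisons with PC3-EMT14. Of this list, 12 reached 1 FPKM, 1 was higher in each of these comparisons and 0 were lower, counts that say little at those shares. That gene was EPAS1, which encodes the hypoxia factor HIF-2alpha, at 6.95 and 14.6 with OVOL1, 6.88 and 21.5 with OVOL2, and 7.10 and 32.1 in PC3-Epi.

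None of the IL6 signalling genes was counted as higher in a comparison where IL6 was. Of 21 genes of the IL6 family and its signalling, 18 reached 1 FPKM in each comparison with PC3-EMT14. In each of the 3, 0 of 18 were higher, against 2.43%, 4.42% and 7.37% of all genes, so the 0 says little. With OVOL1 1 was lower, with OVOL2 0 were, and 6 were lower in PC3-Epi, against the 1.54%, 2.93% and 8.34% of all genes given above. STAT3 and SOCS3 are named after their values were seen. STAT3, a gene that PC3 cells are known to lack, was at most 0.0181 FPKM in any line. SOCS3, a feedback inhibitor induced by IL6 family cytokines, was 22.7 in PC3-EMT14 and 37.5 with OVOL1, 22.4 and 44.5 with OVOL2, just under 2-fold, and 23.2 and 17.2 in PC3-Epi. IL6R was 5.64 FPKM in PC3-EMT14 and 5.33 with OVOL1, 5.58 and 5.74 with OVOL2, and 5.76 and 1.36 in PC3-Epi. IL6ST, named after its values were seen, was 16.1 and 13.3 with OVOL2, and 16.6 and 7.25 in PC3-Epi. LIFR, the receptor of leukemia inhibitory factor, was 5.30 and 1.82 in PC3-Epi, and SOCS1, an inhibitor of JAK signalling, was 3.05 and 0.936. IL11, a cytokine that also signals through IL6ST, was 1.74 in PC3-EMT14 and 0.546 with OVOL1.

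NF-kappaB genes were higher with OVOL2 in 5 of 17 cases, and in 0 of the 16 that reached 1 FPKM with OVOL1 or in PC3-Epi. Over all genes, 4.42% were higher with OVOL2, 2.43% with OVOL1 and 7.37% in PC3-Epi. BIRC3, an inhibitor of apoptosis, was 2.66 FPKM in PC3-EMT14 and 10.7 with OVOL2. TNFAIP3, which encodes the deubiquitinase A20, was 1.83 and 6.63. NFKBIA, the inhibitor IkappaBalpha, was 18.2 and 47.0, and RELB, an NF-kappaB subunit, was 3.24 and 7.71. REL, the remaining gene of the 5, was 0.558 and 1.25 and so reached 1 FPKM only through the OVOL2 line. With OVOL1 the log2 ratios of these 5 genes to PC3-EMT14 lay between 0.40 and 0.75, and RELA, the main activating subunit, was within 2-fold in each comparison. In the direct table BIRC3 and TNFAIP3 were the 2 genes of the list that were higher with OVOL2 than with OVOL1.

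Of 15 other inflammatory cytokines and receptors with a single entry, 10 reached 1 FPKM with OVOL1, of which 2 were higher and 0 lower, against 2.43% and 1.54% of all genes. With OVOL2 3 of 10 were higher and 2 lower, against 4.42% and 2.93%, and in PC3-Epi 2 of 12 were higher and 4 lower, against 7.37% and 8.34%. CSF2 (GM-CSF) and IL32, named after their values were seen, were the genes higher with both factors. CSF2 was 4.52 FPKM in PC3-EMT14 and 23.1 with OVOL1, 4.47 and 40.5 with OVOL2, and 4.61 and 3.61 in PC3-Epi. IL32 was 9.17 and 18.4, 9.07 and 50.8, and 9.37 and 7.30 in the same order. IL1B, which encodes interleukin-1 beta, was very abundant in the mesenchymal line and its derivatives, at 718 and 765 with OVOL1 and 710 and 738 with OVOL2, but 733 and 23.4 in PC3-Epi. In PC3-Epi, CSF3 (G-CSF) was 8.75 and 0.153, TLR4, the endotoxin receptor, was 2.59 and 0.247, and IL1RN, the interleukin-1 receptor antagonist, was 0.105 and 2.92.

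**Figure D4:**
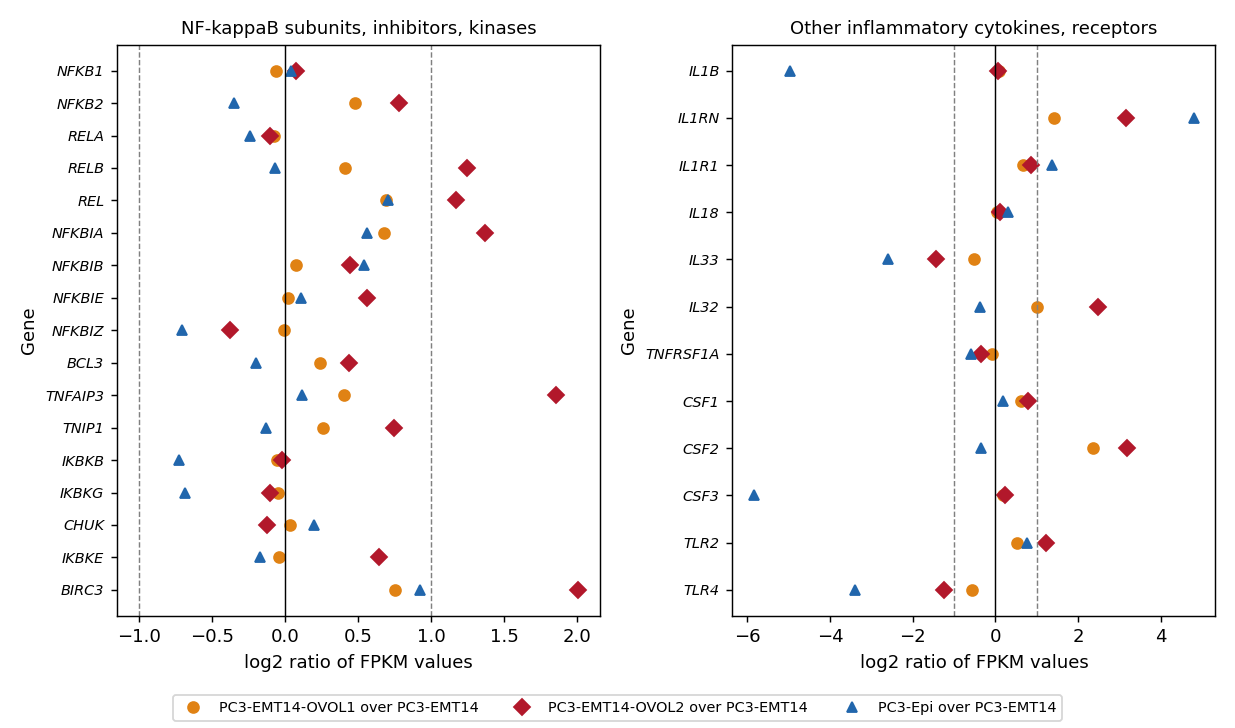
Log2 ratio of each line to PC3-EMT14 of the same table for the genes of the NF-kappaB list (left) and of the other inflammatory list (right) that reached 1 FPKM in any of these values, with dashed lines at a 2-fold difference. On the left panel 5 genes lie right of the dashed line at +1, with OVOL2 only, and on the right panel CSF2 and IL32 lie at or right of it with both factors while IL1B and CSF3 lie far left in PC3-Epi only.

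The ELR chemokine genes form a cluster on chromosome 4, where IL8 and CXCL2 at its ends span 359 kb. Within 500 kb of these genes lay 13 other gene entries, and 0 of them were lower in any comparison with PC3-EMT14. With OVOL1, 2 of the 5 that reached 1 FPKM were higher, with OVOL2 4 of 6 were, and in PC3-Epi 2 of 5 were, against 2.43%, 4.42% and 7.37% of all genes. The 2 with OVOL1 were EPGN and CXCL6, and the 4 with OVOL2 were EPGN, AREG, RASSF6 and PF4. PF4 reached 1 FPKM only with OVOL2, and CXCL6 and PF4 were already counted among the further CXC ligands. RASSF6, on the IL8 side of the cluster, was 1.74 FPKM in PC3-EMT14 and 4.59 with OVOL2. EPGN (epigen) and AREG (amphiregulin), ligands of the EGF receptor, lie at the other side. EPGN was 4.62 FPKM in PC3-EMT14 and 15.1 with OVOL1, 4.57 and 23.3 with OVOL2, and 4.71 and 11.2 in PC3-Epi. AREG was 18.5 and 36.8, 18.3 and 57.2, and 18.9 and 81.4 in the same order. MTHFD2L, which lies between CXCL2 and EPGN, was within 2-fold in every comparison.

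Few neighbours of the other genes reached 1 FPKM, and those counted lay near CXCR4 and CXCR7. Near CCL2, 0 of 7 entries reached 1 FPKM. Within 500 kb of IL6 and of CCL20, 5 and 2 gene entries reached 1 FPKM, and 0 were higher or lower in any comparison. Of all genes, 2.43% to 7.37% were higher and 1.54% to 8.34% lower in the comparisons with PC3-EMT14, so 0 among so few says little. Of the 4 entries near CXCR4 that reached 1 FPKM, only MCM6, a replication helicase subunit, was counted, at 15.4 FPKM in PC3-EMT14 and 40.6 in PC3-Epi. Near CXCR7, GBX2, a homeobox gene, was 36.2 and 19.2 with OVOL1 and 35.8 and 6.23 with OVOL2. Its log2 ratio was -4.67 in PC3-Epi, at 1.45 FPKM, and so it had the order of the receptor. IQCA1, also near CXCR7, was 1.88 and 0.471 in PC3-Epi.

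The genes most like CXCR4 and IL8 were sought by the root mean square difference of the log2 ratios to PC3-EMT14 over the 3 other lines, among 12452 genes. For CXCR4 they were REG4, at a difference of 0.24, LOC146336 (0.44) and LOC100144602 (0.45). For IL8 they were ST6GALNAC1, a sialyltransferase (0.20), MYPN, which encodes the muscle protein myopalladin (0.22), and EPGN of the same chromosome 4 region (0.26). With 3 points per gene, drawn from tables that share PC3-EMT14, these are descriptions of pattern only.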

How the data were processed

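RNA was sequenced from 10 samples in 4 groups, named by the sample titles, as paired-end reads of 50 bases. The authors aligned reads with TopHat to UCSC hg19 and compared pairs of lines with Cuffdiff, using upper-quartile normalization to transcriptome-compatible hits and corrections for multiply mapped reads and sequence bias. The deposited FPKM values are 1 pooled value per line and table in 4 gene and 4 isoform tables (23170 and 37557 entries). The same tables hold the authors' fold changes, test statistics, p-values and q-values, which were not used. Value columns were assigned to lines from the pair and order in each table's name. The number of columns of per-sample values left unused is 0. Sample depth is not known from these values, so no interval or detection floor was computed.

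Ratios were taken within a table in Python 3.11.15 (numpy 2.4.6, pandas 2.3.3, biopython 1.88, matplotlib 3.10.9) without a pseudocount, and a gene was counted at 2-fold with at least 1 FPKM in the higher line. The counting was tested on simulated data. Named genes were the 10 genes of interest, up to 4 genes per list with the largest ratios past 2-fold, the 3 genes most like CXCR4 and IL8, and neighbours within 500 kb. The genes and lists were chosen with earlier results of these data known. TNF and AIF1 had several entries and were left out of their lists. One gene used to check the identity of the lines is not reported here. Alternatives were other fold limits, floors, a pseudocount, rescaling, centring, isoform sums and only entries that Cuffdiff could test.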

Additional observations from a re-analysis of the deposited data

How the results depend on the processing

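No paired analysis was possible because each line has 1 pooled value per table, and for the same reason no sample could be left out. The counts depended on the limits set. At a limit of 4-fold, 2 of the 10 genes were higher and 1 lower with OVOL1, 1 was lower with OVOL2, 0 were higher in PC3-Epi, and 0 were higher with OVOL2 than with OVOL1. At 1.5-fold, 7 were higher with OVOL2 than with OVOL1. With a floor of 5 FPKM, 1 was lower in each of the 3 comparisons with PC3-EMT14, 1 was higher in PC3-Epi, and 2 were higher with OVOL2 than with OVOL1. With a pseudocount of 1 FPKM, which shrinks the ratios of low genes by construction, 0 were lower with OVOL1 and 1 with OVOL2, 1 was higher in PC3-Epi, and 2 were higher with OVOL2 than with OVOL1. The other 59 recomputed counts, among them all those without a floor, with centred or rescaled values, with summed isoforms and with entries of test status OK, stayed within 1.5 times the value reported. Of the single-gene log2 ratios, those of CCL2 included, 13 moved by over 0.58, all under the pseudocount, and 193 did not, and 0 changed sign past 2-fold. CCL2, CCL20, CXCL5 and CXCR4 lie near or under 1 FPKM, where pooled values of unknown depth are least certain. IL6 was also low in PC3-EMT14, at 1.31 to 1.35 FPKM, and its ratios in both OVOL lines were among those that moved.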
